A study of Mus musculus with 8 samples.

Results

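Nop56 and Nop58 are nucleolar proteins that sit together, with fibrillarin, on every box C/D small nucleolar RNA (snoRNA). In mouse both genes also carry box C/D snoRNAs inside their own introns, so that splicing of the messenger RNA of the protein releases the RNA that the protein binds. The rows described here are the snoRNAs named for those introns: 4 of Nop58 (Snord11-201, SNORD11B.1-201, Snord70-201 and SNORD70.1-201) and 4 of Nop56 (Snord57-201, Snord110-201, SNORD56.1-201 and SNORD86.5-201), 8 of the 964 rows of the deposited table. They were chosen by name and by host gene, with no minimum level. The set was selected on knowledge of this comparison: the difference between the groups at Snord11-201 and other snoRNA rows was already known. The differences between the groups are therefore given as a description, without p-values, and calls of the fit over all rows are printed only beside the share of all rows called.

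The libraries hold small RNA of granulocyte-monocyte-lymphoid progenitors (GMLPs) sorted from mouse bone marrow. The genotype was wild type (WT) for 4 libraries and iMLL-ENL for the other 4, an inducible transgene for MLL-ENL, a leukaemia fusion of the histone methyltransferase MLL with ENL. Cells of both groups were cultured for 3 days with doxycycline (DOX), the inducer of such transgenes, so the WT libraries carry the drug but not the fusion. The labels do not state the age of the mice, the promoter behind the transgene, or whether a replicate is 1 mouse, so the spread between replicates may be technical. GMLP marker messenger RNAs, the fusion transcript and the messenger RNAs of Nop56 and Nop58 were not analysed here. Values are in RPM, the reads of a row for every 1000000 reads of its library. A read was worth 0.108 to 0.169 RPM by the steps between the values, so that the scale of a library rested on about 5913928 to 9274193 reads. WT replicate 2 stood apart, with a mean correlation of 0.908 to the other WT libraries over the tested rows, against 0.955 to 0.968 for WT replicates 1, 3 and 4 and 0.990 to 0.994 within the iMLL-ENL group.

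A box C/D snoRNA folds so that its box C, near the 5′ end, meets its box D, near the 3′ end, and the bases just before box D (or before an internal copy of it, box D′) pair with a target RNA and direct methylation of a ribose there. The snoRNAs called SNORD11, SNORD11B, SNORD56, SNORD57, SNORD70 and SNORD110 are known as guides for 18S ribosomal RNA. SNORD86 is known instead for a role inside the NOP56 pre-messenger RNA, where it takes part in the control of NOP56 splicing. Ribosome production and the methylation of ribosomal RNA are high in growing progenitor cells, and box C/D snoRNAs are studied for this reason in leukaemia.

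GENCODE release M21 (GRCm38) places 4 snoRNA genes in introns of Nop58 (chromosome 1, 59684971 to 59719044, plus strand) and 5 in introns of Nop56 (chromosome 2, 130274430 to 130279313, plus strand). Of the 8 rows, 4 match a GENCODE transcript name exactly. Snord70 lies at chromosome 1, 59691934 to 59692020, in intron 2 of Nop58 (counted in the coding transcript with the most exons, 15), and Snord11 at 59704790 to 59704873 in intron 9. Snord110 lies at chromosome 2, 130275506 to 130275573, in intron 3 of Nop56 (12 exons, counted in the same way), and Snord57 at 130278016 to 130278087 in intron 10. The names in capitals, SNORD11B.1, SNORD70.1, SNORD56.1 and SNORD86.5, are not paired with a gene model in the sources used here, so their host is taken from the name alone. The other snoRNA genes of these introns bear Gm names. In Nop58 they are Gm26293 (59692509 to 59692592, intron 3) and Gm26287 (59704258 to 59704338, intron 8).

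**Figure D1:**
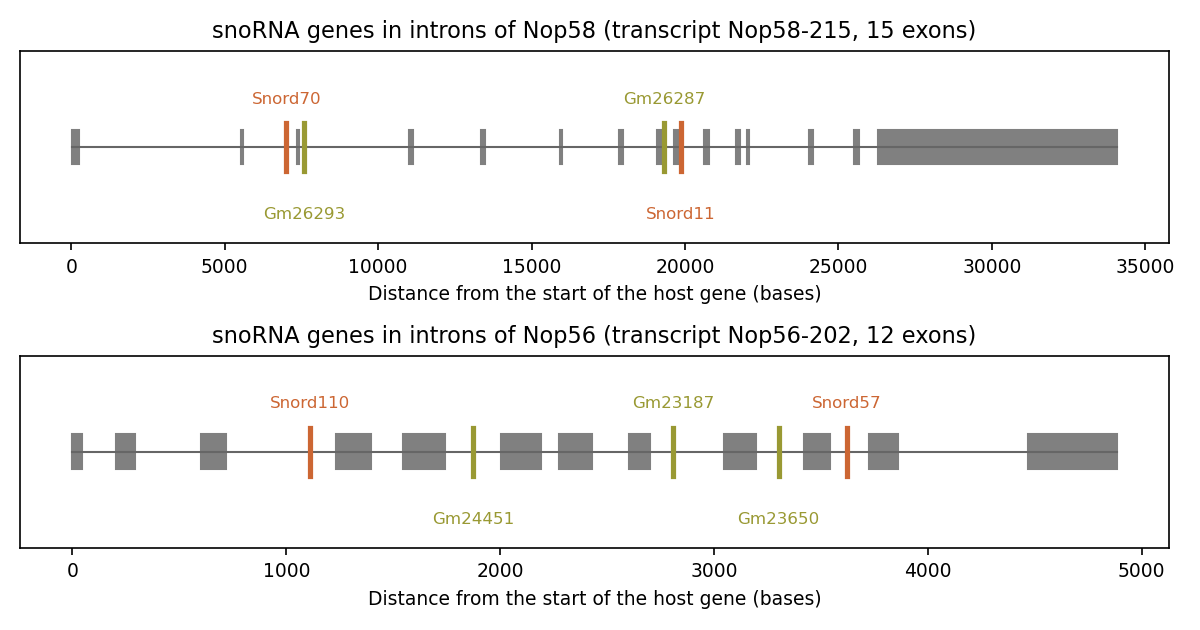
Gene maps of Nop58 (top) and Nop56 (bottom), with the distance from the start of the host gene in bases on the x axis. Grey boxes are exons of the named transcript, orange bars are snoRNA genes whose name is also a row of the deposited table, and olive bars are those whose name is not; each bar lies in an intron, 4 in Nop58 and 5 in Nop56.

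The 4 snoRNAs annotated in Nop58 are shown first because they share a run of bases just before box D. The letters are the GENCODE M21 transcripts, 5′ to 3′, written as DNA. Capitals mark the first TGATG (the core of box C), the longest run that all 4 share, GTCACTACC, and the last CTGA (box D).
Snord11: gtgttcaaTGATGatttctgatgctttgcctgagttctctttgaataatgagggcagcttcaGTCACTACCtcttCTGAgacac
Gm26287: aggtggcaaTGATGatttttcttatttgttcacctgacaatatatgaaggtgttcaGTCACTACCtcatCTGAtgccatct
Snord70: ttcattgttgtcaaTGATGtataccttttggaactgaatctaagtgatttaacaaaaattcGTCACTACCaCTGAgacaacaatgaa
Gm26293: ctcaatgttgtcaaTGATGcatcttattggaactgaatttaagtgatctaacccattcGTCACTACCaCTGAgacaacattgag

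The shared run of 9 bases ends 4 bases before box D in Snord11 and Gm26287 and 1 base before it in Snord70 and Gm26293. The same letters occur on the sense strand of 4 of the 1472 snoRNA transcripts searched (0.272%), which are these 4, and their reverse complement occurs in 0. The run was picked as the longest that all 4 share, so its presence in these 4 was fixed in advance. TGATG occurs in 36.1% and CTGA in 79.6% of the 1472, but both are shorter and do not measure how rare the run is. The Nop58 snoRNAs thus fall into pairs: Snord70 and Gm26293 were identical at 84.1% of aligned positions and Snord11 and Gm26287 at 67.0%, while identity across the pairs was 55.4% to 57.1%. A read that covers only the common bases cannot be assigned to a single gene of a pair, and how the authors treated such reads is not given in the sources used here.

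The matched Nop56 snoRNAs hold no such run. They are shown for the contrast, with the same boxes in capitals; the letters TGATG do not occur in Snord57.
Snord110: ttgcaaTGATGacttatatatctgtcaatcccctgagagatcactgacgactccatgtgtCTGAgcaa
Snord57: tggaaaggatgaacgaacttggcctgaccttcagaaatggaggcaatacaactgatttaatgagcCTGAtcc

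In Snord110 the longest run complementary to Gm42418, which RefSeq lists as the 18S-related sequence Rn18s-rs5, was ATCTGTCAATCC, 12 bases that end 1 base before an internal CTGA. In the 8 other snoRNA genes of these introns the longest such run was 7 to 9 bases, and the reverse complement of GTCACTACC has 0 matches in the 1831 bases of Gm42418. The full 18S ribosomal RNA was not used here, and which parts of it Gm42418 covers was not determined. A site outside those parts would be missed. The 0 matches and the short runs therefore do not show whether these snoRNAs pair with 18S ribosomal RNA. The other Nop56 intron genes are Gm23187, Gm23650 and Gm24451. Gm23187 (130277195 to 130277280) shares runs of 14 bases with 4 annotated snoRNAs on chromosomes 11, 14, 16 and 19. Which gene the row SNORD86.5 stands for is not given in the sources used here.

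All 4 rows named for Nop58 were higher in iMLL-ENL, with no overlap between the groups, as were 27.2% of all tested rows, and the pair with the Snord11 names differed most. Snord11-201, from a guide of 18S ribosomal RNA methylation, was at 24.4, 24.6, 20.5 and 38.8 RPM in WT replicates 1 to 4 and at 55.3, 69.98, 64.3 and 90.7 RPM in iMLL-ENL replicates 1 to 4. Replicate 4 was the highest library of each group, and the groups did not overlap. The means were 27.05 ± 8.07 and 70.05 ± 15.03 RPM (SD, n = 4), a ratio of 2.59, and the log2 fold change was 1.36 ± 0.22 (SE) on the log2(RPM + 1) scale.

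SNORD11B.1-201, named for the related snoRNA of the same host, was at 22.1, 21.7, 14.5 and 28.3 RPM in WT and at 42.2, 58.01, 50.8 and 64.3 RPM in iMLL-ENL. WT replicate 3 was the lowest library and the groups did not overlap. The mean went from 21.7 ± 5.6 to 53.8 ± 9.5 RPM, with a log2 fold change of 1.29 ± 0.22. The ratio of Snord11-201 to SNORD11B.1-201 within a library lay between 0.14 and 0.50 on the log2 scale in all 8 libraries, with means of 0.32 in WT and 0.37 in iMLL-ENL, a difference within the spread of the libraries.

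The Snord70 names were also higher, by less. SNORD70.1-201 was at 32.1, 24.6, 22.2 and 40.8 RPM in WT and at 57.1, 51.2, 58.6 and 61.8 RPM in iMLL-ENL, with no overlap and a log2 fold change of 0.95 ± 0.19. Snord70-201, the most abundant Nop58 row in WT, was at 55.9, 39.9, 36.7 and 61.1 RPM in WT and at 77.2, 72.8, 73.8 and 76.2 RPM in iMLL-ENL. Its groups did not overlap, and the log2 fold change was 0.65 ± 0.18.

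Among the 3 tested Nop56 rows, only Snord57-201 did not overlap between the groups. Of all 633 tested rows, 27.2% had every iMLL-ENL library above every WT library. The groups of SNORD86.5-201, which was not tested, did not overlap either. Snord57-201, a guide of 18S ribosomal RNA and the most abundant row of the set, was at 149, 123, 131 and 172 RPM in WT and at 217, 201, 208 and 269 RPM in iMLL-ENL. Each iMLL-ENL library was above each WT library, and the log2 fold change was 0.64 ± 0.15.

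Snord110-201, also an 18S guide, was at 64.5, 44.9, 40.9 and 80.2 RPM in WT and at 85.9, 73.5, 76.5 and 78.5 RPM in iMLL-ENL. WT replicate 4 lay above 3 of the 4 iMLL-ENL libraries. The means were 57.6 ± 18.2 and 78.6 ± 5.3 RPM, and the log2 fold change of 0.49 ± 0.22 was not called.

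SNORD56.1-201 was at 86.8, 71.3, 64.6 and 101 RPM in WT and at 101, 82.5, 99.2 and 114 RPM in iMLL-ENL. The groups overlapped, and the log2 fold change was 0.30 ± 0.18, the smallest of the set and close to the median of 0.31 over all 633 tested rows.

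SNORD86.5-201 was by far the lowest row, at 2.52, 1.43, 1.52 and 2.52 RPM in WT and at 3.94, 3.77, 3.53 and 3.51 RPM in iMLL-ENL. These values stand for about 9 to 35 reads a library. It did not reach 10 RPM in any library and was left out of the fit, although its groups did not overlap.

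**Figure D2:**
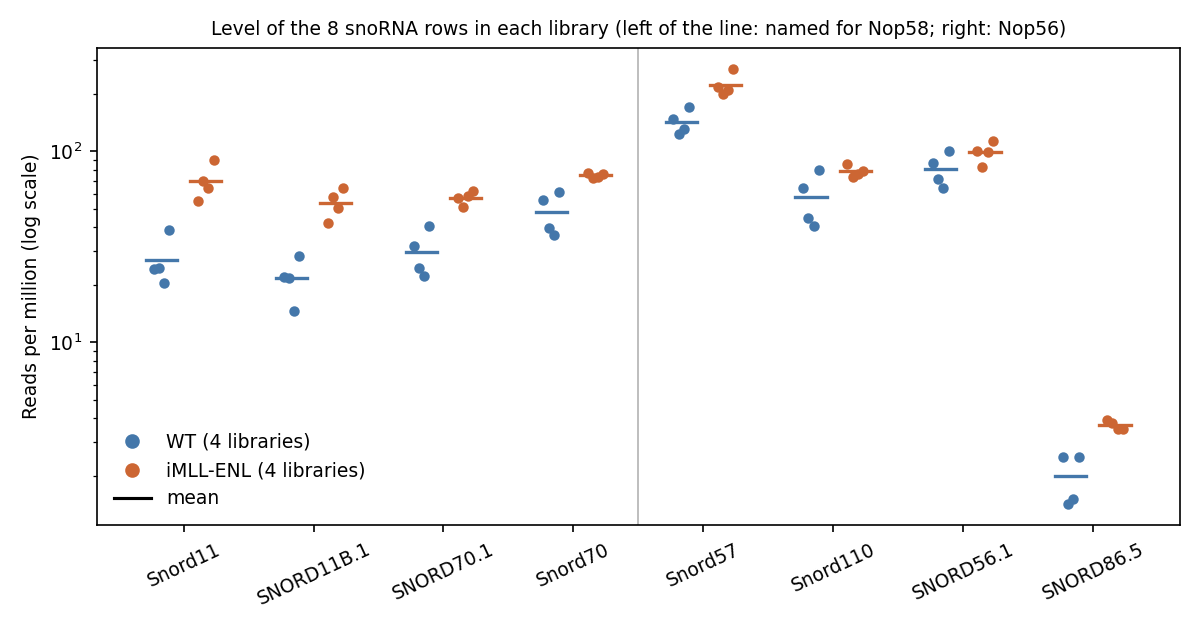
Level of each of the 8 snoRNA rows in RPM (y axis, log scale) in the 4 WT (blue) and 4 iMLL-ENL (orange) libraries; each point is a library and each bar a group mean. All iMLL-ENL libraries lie above all WT libraries for each row named for Nop58 (left of the line) and for Snord57 and SNORD86.5, and the groups overlap for Snord110 and SNORD56.1.

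The other 7 rows reached 10 RPM in all 8 libraries, so none entered the fit through the group where it was higher. In that fit (limma on log2(RPM + 1), Benjamini-Hochberg adjusted p under 0.05 over 633 rows) 5 of the 7 were called higher, all 4 Nop58 rows and Snord57-201, and 0 were called lower, while 20.4% of all tested rows were called higher. Of the 7, 5 had every iMLL-ENL library above every WT library, as had 27.2% of all tested rows. Fitted without the filter, where SNORD86.5-201 could be tested, 6 of the 8 rows were called higher, SNORD86.5-201 among them at 0.67 ± 0.19, beside 23.9% of all 964 rows. Since the set was put forward with these differences known, nothing is read from the counts.

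The number of calls moved with the scaling of the libraries. The median log2 fold change of all tested rows was 0.31 on the deposited scale, -0.08 after TMM scaling, 0.16 after quantile normalization and 0.59 with each library scaled to its sum over the rows. With TMM scaling 3 of the 7 rows were called higher (6.00% of all tested rows), Snord11-201 at 0.97 ± 0.18, SNORD11B.1-201 at 0.91 ± 0.16 and SNORD70.1-201 at 0.56 ± 0.17. Snord70-201 (0.26), Snord57-201 (0.24) and Snord110-201 (0.10) were not called there, and SNORD56.1-201 turned to -0.091. After quantile normalization 3 were called, both Snord11 names and Snord57-201, beside 10.6% of all tested rows. SNORD70.1-201 (0.96 ± 0.33) and Snord70-201 (0.63 ± 0.26) kept their size there but with larger SEs, and were not called. With libraries scaled to their sum over the rows all 7 were called, beside 39.7%. Snord11-201 and SNORD11B.1-201 were called under each of these scalings and whichever single library was left out, at 1.23 to 1.54 and 1.12 to 1.43. The call of Snord70-201 was lost without WT replicate 1 (0.73) or 3 (0.53) and without each iMLL-ENL replicate (0.64 to 0.67), and that of Snord57-201 without WT replicate 1 (0.66). Snord110-201 was called without WT replicate 4, at 0.66. The members called thus numbered 3 without WT replicate 1, beside 7.31% of all rows tested there, and 6 without WT replicate 4, beside 24.5%.

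**Figure D3:**
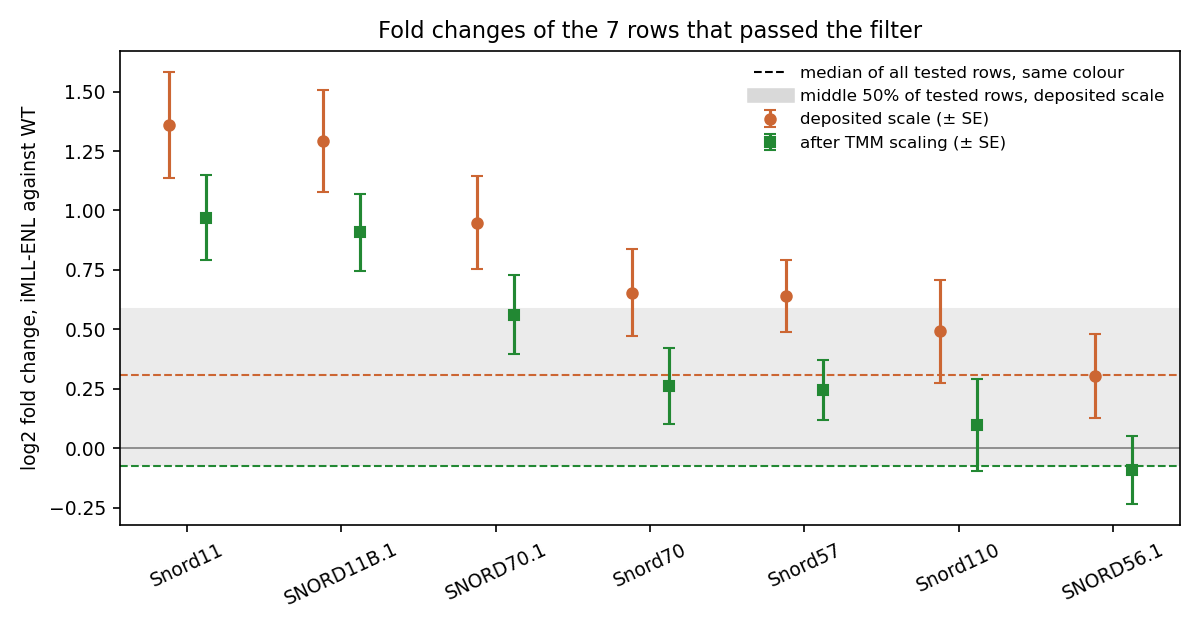
The log2 fold change of iMLL-ENL against WT with its SE (y axis) for the 7 rows that passed the filter, on the deposited scale (orange circles) and after TMM scaling (green squares); dashed lines are the medians of all tested rows on each scale, 0.31 and -0.08, and the grey band holds the middle 50% of tested rows on the deposited scale. The order runs from Snord11 at 1.36 down to SNORD56.1 at 0.30, and SNORD56.1 lies close to the dashed line on each scale.

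The authors' deposited table gives lower fold changes for each of the 8 rows than the log2(RPM + 1) scale, and for the 7 tested rows they lay close to those found after TMM scaling (0.97, 0.91, 0.56, 0.26, 0.24, 0.10 and -0.091, in the order Snord11-201, SNORD11B.1-201, SNORD70.1-201, Snord70-201, Snord57-201, Snord110-201, SNORD56.1-201). Its log2 fold change was 0.97 for Snord11-201, 0.92 for SNORD11B.1-201, 0.55 for SNORD70.1-201 and 0.25 for Snord70-201. For the Nop56 names the authors' deposited table has 0.49 (SNORD86.5-201), 0.24 (Snord57-201), 0.07 (Snord110-201) and -0.094 (SNORD56.1-201), against a median of -0.095 over all its rows. Snord11-201 alone of the 8 has a false discovery rate under 0.05 in the authors' deposited table, where 4.56% of all rows are called higher.

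Summed by host, the Nop58 rows were at 134, 111, 93.8 and 169 RPM in WT and at 232, 252, 247 and 293 RPM in iMLL-ENL. The Nop56 rows summed to 302, 241, 238 and 355 RPM in WT and to 408, 361, 388 and 465 RPM in iMLL-ENL. Both sums were higher in iMLL-ENL with no overlap, though the highest WT library of the Nop56 sum, 355 RPM, came close to the lowest iMLL-ENL library at 361 RPM. The difference in log2(sum + 1) was 1.04 for Nop58 (SD between libraries 0.36 in WT and 0.14 in iMLL-ENL) and 0.53 for Nop56 (0.28 and 0.15). Without WT replicate 2 these were 0.98 and 0.45. After TMM scaling they were 0.64 and 0.13. RPM is relative to the other reads of a library, so these sums do not show an absolute rise. Nor can the amount of snoRNA per cell and the number of cells that hold much of it be told apart in these bulk libraries.

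A ratio between rows of the same library is not changed by any factor that scales the library as a whole. The Nop58 sum was 0.44, 0.46, 0.39 and 0.48 of the Nop56 sum in the WT libraries and 0.57, 0.70, 0.64 and 0.63 of it in the iMLL-ENL libraries. Each iMLL-ENL library was above each WT library, and the mean log2 ratio went from -1.18 ± 0.12 to -0.66 ± 0.12 (SD, n = 4), a difference of 0.51. The 2 sums thus did not change in proportion, and the Nop58 sum includes Snord11-201, whose difference was already known. Pairs of rows across the hosts varied. The log2 ratio of Snord70-201 to Snord57-201 changed by 0.02 and that of SNORD70.1-201 to Snord57-201 by 0.33, both with overlap. It had no overlap for 11 of the 16 pairs.

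Rows of the same host did not all change in proportion either. Snord11-201 was at 0.44, 0.62, 0.56 and 0.64 of Snord70-201 in WT and at 0.72, 0.96, 0.87 and 1.19 of it in iMLL-ENL, although GENCODE places both in introns of Nop58 on the same strand. The ratio of SNORD70.1-201 to Snord70-201, whose names are alike, also did not overlap between the groups, with log2 means of -0.70 ± 0.09 and -0.39 ± 0.09. In Nop56, Snord57-201 over SNORD56.1-201 went from 0.84 ± 0.12 to 1.17 ± 0.10 on the log2 scale with no overlap, while Snord57-201 over Snord110-201 overlapped, at 1.36 ± 0.26 and 1.502 ± 0.188.

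Over all pairs, the ratio had no overlap between the groups for 3 of 6 pairs within Nop58, 3 of 6 within Nop56 and 11 of 16 across the hosts. Among all pairs of tested rows with a Snord name, 36.8% of ratios did not overlap. A ratio that differed between the groups was thus common among box C/D rows in these libraries. Pairs share rows, so their counts are not independent.

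**Figure D4:**
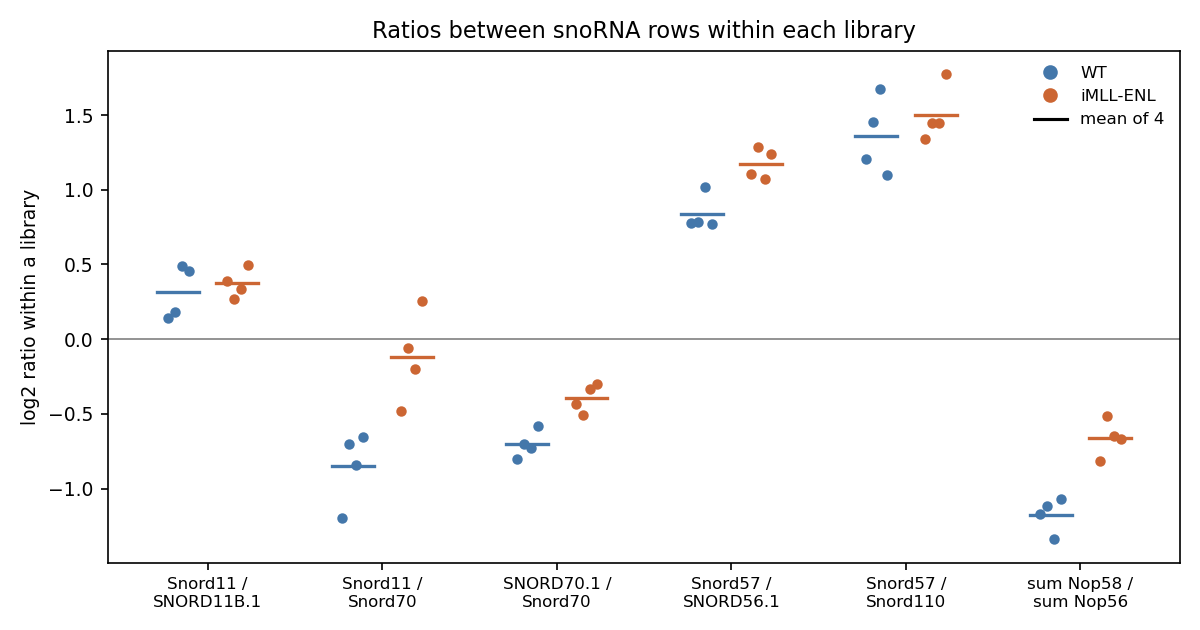
The log2 ratio between rows of the same library (y axis) for 5 pairs of snoRNA rows and for the host sums; each point is 1 of 4 WT (blue) or 4 iMLL-ENL (orange) libraries and each bar the group mean. Snord11 over Snord70 and the Nop58 sum over the Nop56 sum do not overlap between the groups, while Snord11 over SNORD11B.1 and Snord57 over Snord110 do.

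Levels can be set side by side per length for the 4 rows with a GENCODE length. In WT, Snord57-201 was the highest at 199 ± 30 RPM per 100 bases, followed by Snord110-201 at 84.8 ± 26.8, Snord70-201 at 55.6 ± 13.7 and Snord11-201 at 32.2 ± 9.6. Snord57-201 stood clear of the others, but neighbours below it overlapped in their libraries: Snord110-201 spanned 60.2 to 118, Snord70-201 42.2 to 70.2 and Snord11-201 24.4 to 46.2. In iMLL-ENL, Snord57-201 was at 311 ± 43 and Snord110-201 at 116 ± 8 RPM per 100 bases, and every library of Snord110-201 lay above every library of Snord70-201. Snord70-201 (86.2 ± 2.4) and Snord11-201 (83.4 ± 17.9) overlapped there, with nearly equal means. The separation of Snord110-201 from Snord70-201 came from the division by length. In RPM their iMLL-ENL libraries overlapped, at 73.5 to 85.9 for Snord110-201 and 72.8 to 77.2 for Snord70-201. Whether reads grow with snoRNA length in these libraries was not tested.

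Set against the whole box C/D class, the Nop58 rows also took a larger part. They held 0.910%, 0.771%, 0.777% and 0.941% of the reads of all 142 rows with a Snord name in WT, and 1.26%, 1.504%, 1.32% and 1.28% in iMLL-ENL. The Nop56 rows held 2.05%, 1.68%, 1.97% and 1.98% in WT and 2.22%, 2.15%, 2.06% and 2.03% in iMLL-ENL. The share of the Nop58 rows did not overlap between the groups, and that of the Nop56 rows did.

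The calls in these lists stand beside the 20.4% of all tested rows called higher. Of the other 134 Snord rows, 121 were tested, 20 were called higher (16.5%) and 1 lower. Their median log2 fold change was 0.26, close to the 0.31 of all tested rows. The median of the Nop58 rows was 1.12 and that of the 3 tested Nop56 rows 0.49. Snord rows named for the growth-arrest gene Gas5 were called higher in 1 of 7, with a median of 0.25. Those named for Snhg1, a non-coding snoRNA host, were called higher in 3 of 7 and lower in 1 (median 0.18), and those for the ribosomal protein gene Rpl13a higher in 1 of 5 (median 0.48). The single tested row named for nucleolin (Ncl), another nucleolar protein gene, was Snord82-201, at 0.70 ± 0.17. Box H/ACA rows, which guide pseudouridylation and do not bind Nop56 or Nop58, were called higher in 8 of 41 (19.5%) with a median of 0.53. After TMM scaling the medians were 0.73 for the Nop58 rows, 0.10 for the Nop56 rows, 0.09 for Rpl13a and 0.15 for box H/ACA, and they turned negative for the other box C/D rows (-0.13), Gas5 (-0.15) and Snhg1 (-0.22), beside -0.08 for all tested rows. All lists were built by name, with earlier results of these data known.

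The largest called changes in these lists were SNORD97.1-201 at 1.70 ± 0.21 among the other box C/D rows, SNORD44.1-201 (Gas5) at 0.86 ± 0.17, SNORD30.1-201 (Snhg1) at -0.72 ± 0.20 and Snord34-201 (Rpl13a) at 0.67 ± 0.21. In box H/ACA it was SNORA51.4-201, whose mean went from 24.7 ± 9.995 to 58.9 ± 15.3 RPM (1.26 ± 0.30). SNORA51 is known in human as a snoRNA of a NOP56 intron. The gene behind this row is not given in the sources used here, and Gm24451, which is 133 bases long and lies in intron 5 of Nop56, shares runs of 14 bases with 5 annotated snoRNAs elsewhere.

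Outside the set itself, the rows whose level followed the Nop58 sum most closely over the 8 libraries, by Pearson correlation of log2(RPM + 1), were SNORD88.2-201 (0.990), SNORA1.1-201 (0.982) and tRNA988-SerGCT (0.978). The non-members closest to the Nop56 sum were Rnu73b-201 (0.991), Snord82-201 (0.986) and Snord34-201 (0.978). With the group means removed the values were 0.945, 0.931 and 0.866, and 0.975, 0.970 and 0.942. These correlations are a description: the rows share libraries, scaling and, in the first values, the difference between the groups. SNORD88.2-201 went from 16.9 ± 3.8 to 36.9 ± 5.7 RPM and Rnu73b-201 from 74.1 ± 15.8 to 109 ± 10 RPM.

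Among the members themselves, with group means removed, Snord11-201 followed SNORD11B.1-201 (0.912) and Snord70-201 followed SNORD70.1-201 (0.950). Snord70-201 followed Snord110-201 of the other host more closely still (0.984). Snord11-201 followed Snord70-201 (0.617) less than it followed Snord57-201 (0.793) and SNORD56.1-201 (0.711), which are named for Nop56. With the other Nop56 names, Snord110-201 and SNORD86.5-201, its values were 0.610 and 0.407.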

How the data were processed

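Small RNA libraries of 4 WT and 4 iMLL-ENL samples were read from the single deposited table. Its library columns, headed TPM by the authors' file name, hold RPM: within each library 100% of the values under 1000 RPM were whole multiples of a step within 0.0055 RPM, whatever the row. The smallest value lay at 1 step in 2 libraries and higher in 6, so the steps were used for estimates only and no count model was run. The authors' deposited columns also hold log2 values (a fold change and a mean CPM) and each p-value with its false discovery rate, per the file headers. The build was GRCm38 per the submitters' processing notes. The aligner, like the counting program, read assignment and filters, is not given in the sources used here.

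Rows with at least 10 RPM in at least 4 libraries (633 of 964) were fitted with limma 3.58.1 (R 4.3.3, statmod 1.5.0) to log2(RPM + 1), the prior variance trended and robust; tests were two-sided, at a Benjamini-Hochberg adjusted p of 0.05; this scale understates changes of low rows. The alternatives were TMM (unweighted), quantile and row-total scaling, pseudocounts 0.5 and 10, no filter, another prior, the replicate block and leaving out each library. Every member row is named. Other rows named are the 3 non-members closest to each host sum by correlation and the largest called change of each list. Members and lists were chosen with earlier results of these data known. Annotation and sequences come from GENCODE M21. The 1472 snoRNA transcripts searched leave out chromosome 18. Identity was taken from global alignment (Biopython 1.88). Values were summarised with Python 3.11.15, numpy 2.4.6 and pandas 2.3.3.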

Additional observations from a re-analysis of the deposited data

How the results depend on the processing

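Snord11-201 and SNORD11B.1-201 kept direction and call under every alternative run. SNORD56.1-201 turned to -0.091 after TMM scaling. The number of members called was 5 of 7 as reported, beside 20.4% of all tested rows called higher. It was 3 after TMM scaling (beside 6.00%) and 3 after quantile normalization (beside 10.6%). Without single libraries it was 3 to 6 (3 without WT replicate 1, 6 without WT replicate 4, beside 7.31% and 24.5% of all rows). Snord70-201 lost its call after TMM and quantile scaling and without any 1 library other than WT replicates 2 and 4, Snord57-201 after TMM scaling and without WT replicate 1, and SNORD70.1-201 after quantile normalization, where its value was 0.96 ± 0.33 (SE) against 0.95 ± 0.19. Snord110-201 gained a call without WT replicate 4, and both it and SNORD56.1-201 with libraries scaled to their row sum. The Nop58 sum differed by 0.64 after TMM scaling and by 0.90 to 1.18 without single libraries, and the Nop56 sum by 0.13 after TMM scaling, 0.81 with row-sum scaling and 0.45 to 0.64 without single libraries. The log2 ratio of the sums differed by 0.63 after quantile normalization and by 0.46 to 0.56 without single libraries.

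Of all tested rows, 183 were called, 129 of them higher. The counts were 169 and 38 after TMM scaling, 123 and 67 after quantile normalization, 278 and 251 with row-sum scaling, and 282 and 230 without the filter. They ranged from 59 and 46 (without WT replicate 1) to 343 and 246 (without WT replicate 2), and were 118 and 84 without WT replicate 3, 209 and 154 without WT replicate 4, 82 and 63 without iMLL-ENL replicate 1, 98 and 79 without replicate 2, 80 and 59 without replicate 3 and 89 and 60 without replicate 4. The cause was not tested. With the replicate number as a block 193 of 633 rows were called, 151 of them higher, and beside these the same number of members, 5, all higher. The SE of each tested member was smaller there, 0.13 against 0.22 for Snord11-201. Deviations of same-numbered libraries correlated at 0.39, 0.29, -0.13 and 0.42, and those of differently numbered libraries at -0.44 to 0.29. The highest values, 0.42 and 0.39, were of the same number, but -0.13 was too. These values do not settle whether the numbers pair the samples, and the main fit left the numbers out. Depth limits SNORD86.5-201, at 9 to 35 reads.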
